A study of Mus musculus with 16 samples.

Results

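The arrays described here are the 8 femur arrays of a study of 16 Illumina bead arrays, chosen as all arrays whose title names the femur. They came from 4 AEA001 mutant mice and 4 wild-type mice. The other 8 arrays are white adipose tissue of the same genotypes, 4 each. All mice were males of the inbred strain C3HeB/FeJ, 17 weeks old, and no treatment is given in the labels. Line AEA001 arose by mutagenesis with ENU (N-ethyl-N-nitrosourea), a chemical that makes point mutations, and its submitters present it as an osteoporosis model that carries a mutated Ednra. That gene encodes endothelin receptor type A. Whether the mutants carried 1 or 2 mutant copies, and which bases changed, is not given in the sources used here. An ENU line can carry other induced mutations beside the named one. The transcript of Ednra itself was not analysed here.

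A femur prepared whole contains mineralised bone, cartilage, blood vessels and marrow, and the marrow of an adult mouse makes granulocytes, monocytes, red cells, platelets and B cells. Osteoblasts lay down a matrix rich in type I collagen, osteoclasts of the macrophage lineage resorb it, and both live beside the blood-forming cells. Endothelin receptor type A is a G protein-coupled receptor known chiefly for contraction of vascular smooth muscle, and it is also found on osteoblasts. The arrays carried the transcripts that mark these cells. The osteoblast gene Bglap had an intensity of 14073 ± 1026 in AEA001 femurs and 13302 ± 2139 in wild-type femurs (SD, n = 4 each), and the granulocyte gene S100a8 had 27068 ± 1053 in AEA001 femurs and 25545 ± 444 in wild-type femurs (SD, n = 4 each). The red cell gene Alas2 was at 15627 ± 921 in AEA001 femurs and 18269 ± 1451 in wild-type femurs (SD, n = 4 each). Skeletal muscle was present too, with Acta1 at 24478 ± 1442 in AEA001 femurs and 25832 ± 768 in wild-type femurs (SD, n = 4 each), whereas the skin keratin genes Krt5 and Krt14 did not exceed an intensity of 16 on any of the 8 arrays. In such bulk tissue, fewer cells of a type and less RNA per cell cannot be told apart.

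Signals below are log2 of the authors' intensities with values under 16 set to 16, so that 4 is the lowest log2 signal, and differences near that floor are understated. Probes above 16 on 4 or more femur arrays were kept, which left 14281 probes for 9789 named genes. A gene stands for its brightest kept probe. Differences are AEA001 minus wild type on the log2 scale with limma's SE, and adjusted p-values are two-sided, from limma with Benjamini-Hochberg adjustment over all kept probes. Single-array values follow the replicate numbers 1 to 4. The animals are separate by their labels except for 1 identifier, which wild type replicate 3 and AEA001 replicate 4 share, so the genotype of at least 1 of these 2 femurs is uncertain from the labels. A fit of the other 6 arrays is therefore given beside that of all 8.

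Each of the 8 arrays had a median intensity of 25.3, with 14209 to 14227 probes above 16. Wild type replicate 3 stood nearer to the mutants than the other wild types did. The SD of the log2 difference over probes was 0.324 to 0.368 between AEA001 femurs and wild type replicate 3, and 0.395 to 0.523 between AEA001 femurs and the other 3 wild types. Within the mutants it was 0.321 to 0.409, and between wild type replicate 3 and the other wild types 0.388 to 0.436. A relation between probes of the same gene moved with this. Over 2226 genes with several bright probes, the mean log2 signal of the dimmest minus the brightest probe of a gene was -1.9998, -1.98, -1.99 and -1.98 in AEA001 femurs, against -2.05, -2.09, -1.99 and -2.09 in wild-type femurs. The gap was narrower in the mutants for 57.6% of these genes, and in wild type replicate 3 it was as narrow as in the mutants. Without that array the gap and the genotype cannot be told apart. Dimmer probes leaned upward and brightest probes downward: of the 3658 dimmer probes of a gene, 13.3% were higher in AEA001 and 6.86% lower at an unadjusted p under 0.05, whereas of the 9789 brightest probes 6.53% were higher and 9.17% lower.

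**Figure D1:**
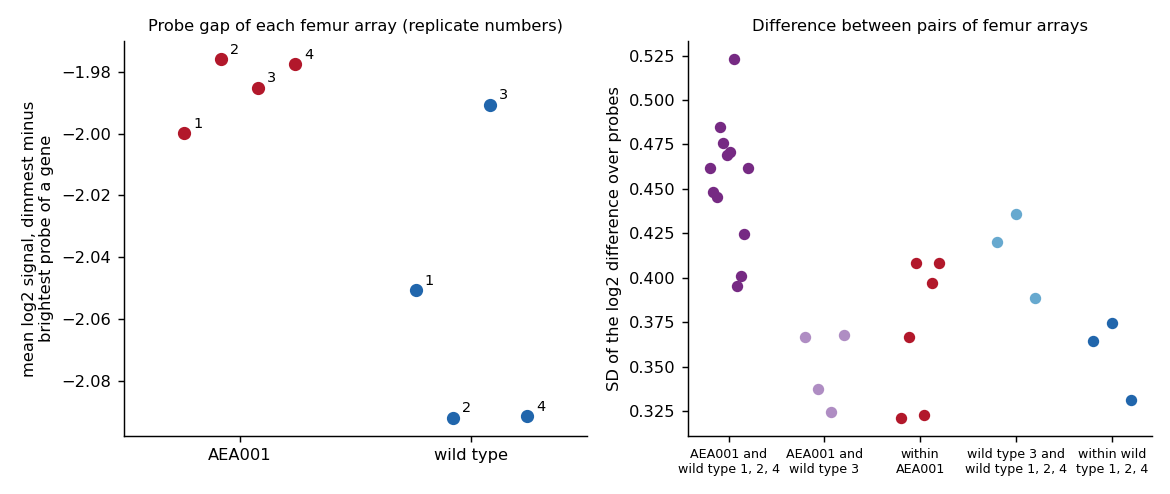
Left, the mean log2 distance between the dimmest and the brightest probe of a gene on each femur array, AEA001 left and wild type right, with replicate numbers. Right, the SD of the log2 difference over probes for pairs of femur arrays, by kind of pair. Wild type 3 lies at -1.99 among the AEA001 arrays on the left, and its distances to AEA001 femurs (0.324 to 0.368) lie below those of the other wild types (0.395 to 0.523).

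Over all 8 femurs, 1 of 14281 probes passed the adjusted threshold of 0.05 (0.00700%). Many more leaned: 2412 probes (16.9%) had an unadjusted p under 0.05, 1185 higher in AEA001 (8.30%) and 1227 lower (8.59%), and for 1338 probes (9.37%) the genotypes did not overlap. By gene, 639 were higher (6.53%) and 898 lower (9.17%) at an unadjusted p under 0.05, and the median difference of all genes was -0.03. At any p, 44.0% of all genes were higher. The list counts below are to be read beside these shares. Differences were small, with 34 genes over 2-fold, 24 of them higher and 10 lower. In the 6 arrays without the shared identifier, 398 probes passed (2.79%), 235 higher (1.65%) and 163 lower (1.14%). By their brightest probe 205 genes passed (2.09%), of which 93 rose (0.950%) and 112 fell (1.14%). Without wild type replicate 3 alone 702 probes passed (4.92%), of which 333 were among the 398. The 6-array count rested on every array: 32 probes passed without wild type replicate 1, 33 without wild type replicate 4, and 0 without wild type replicate 2 or without AEA001 replicate 1, 2 or 3. At the 398 called probes, both femurs of the shared identifier were mostly nearer to the mean of the remaining mutants than to that of the remaining wild types. This held for AEA001 replicate 4 at 82.2% of them and for wild type replicate 3 at 80.9%. With the probe gap of each array as a covariate in the 8-array fit, 0 probes passed and 557 had an unadjusted p under 0.05. Only wild type replicate 3 parts the gap from the genotype. Differences with this covariate therefore rest largely on that femur, which shares its identifier with AEA001 replicate 4.

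The probe past the threshold over all 8 femurs was a dim probe of Lta4h, the leukotriene A4 hydrolase that makes the neutrophil attractant leukotriene B4. Its log2 signal was 4.99, 4.97, 4.92 and 5.03 in AEA001 femurs, against 4.00, 4.00, 4.00 and 4.21 in wild-type femurs. All mutant values lay above all wild-type values, of which 3 stood at the floor. The probe thus passed the brightness filter through the 4 mutants, and the floor hides the spread of the wild types, so its SE and p are too small. The difference was 0.93 ± 0.09 (limma adjusted p = 0.0296), and the brighter probe of Lta4h was at 0.50 ± 0.26 (limma adjusted p = 0.367). Of the genes that act before it, Alox5 (5-lipoxygenase) was at 0.47 ± 0.12 (limma adjusted p = 0.177) and Alox5ap, which activates that enzyme, at 0.40 ± 0.13 (limma adjusted p = 0.207). In both, no mutant femur overlapped a wild-type femur.

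Among genes above 16 on all 8 arrays, those of smallest p were a mixed group in which no mutant value overlapped a wild-type value. The choice by smallest p favours such a lack of overlap, which 9.37% of all probes showed. It also favours a small p in the fit of 6 of these arrays. Both points hold too for genes named below as those of smallest p in a list. The 8 genes named in each direction for the largest difference were taken only from genes without overlap. Among the higher genes, Tapbp, which encodes the tapasin that loads peptides on MHC class I, had 7.18, 7.005, 7.26 and 7.27 in AEA001 femurs, against 6.34, 6.44, 6.56 and 6.48 in wild-type femurs. Its difference was 0.72 ± 0.09 (limma adjusted p = 0.0971), and 0.73 in the fit of 6 arrays (limma adjusted p = 0.0312). The dimmer probe of Tapbp was at 0.32 ± 0.29 over all 8 femurs (limma adjusted p = 0.601). Dnmt3l, a cofactor of DNA methylation that has no catalytic activity of its own, had 5.86, 5.49, 5.42 and 5.61 in AEA001 femurs, against 4.82, 4.49, 4.82 and 4.63 in wild-type femurs. Its brightest probe was at 0.90 ± 0.13 (limma adjusted p = 0.117) and its second probe had the same sign. Of 2613 genes with several kept probes, 56.8% had all of them of 1 sign. Agreement in sign between probes is to be read beside that share. Pstpip2, a membrane-bending adaptor of myeloid cells whose loss in mice causes inflammatory bone lesions, had 7.48, 7.51, 7.61 and 7.33 in AEA001 femurs, against 6.77, 6.57, 7.01 and 6.61 in wild-type femurs. Its difference was 0.74 ± 0.12 (limma adjusted p = 0.139), and 0.88 in the fit of 6 arrays (limma adjusted p = 0.0244). In all 3 genes every mutant was above every wild type, and the wild types lay close together.

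Others of this group were genes of myeloid cells or of small-molecule metabolism. Gsn, the actin-severing protein gelsolin, had 8.68, 8.66, 8.47 and 8.47 in AEA001 femurs, against 7.42, 6.96, 7.999 and 6.98 in wild-type femurs. It was 1.23 ± 0.22 (limma adjusted p = 0.148), and 1.49 in the fit of 6 arrays (limma adjusted p = 0.0244). The wild type nearest to the mutants was replicate 3. The mouse chemokine Ccl6 was 0.85 ± 0.15 (limma adjusted p = 0.148) and rose by 0.92 in the fit of 6 arrays. P2ry14, a receptor of UDP-glucose on immune cells, was 0.61 ± 0.11, the same sign in both of its probes, and Slfn1, a Schlafen gene of lymphoid and myeloid cells, was 0.60 ± 0.11. Upb1, an enzyme of pyrimidine breakdown, was 0.77 ± 0.14, the folate enzyme Aldh1l1 0.68 ± 0.13 with 1 of its 3 probes opposite in sign, the kinase gene Hipk3 0.44 ± 0.09 and the gene AB124611 1.001 ± 0.17. The dimmer probes of Upb1 were at 0.18 ± 0.10 and 0.63 ± 0.20. Of these 8 genes, all but Upb1 and Hipk3 rose at an adjusted p under 0.05 in limma's fit of 6 arrays, where the adjusted p of Upb1 was 0.0758 and that of Hipk3 0.0730. Of all genes 0.950% rose in that fit. The 8 were picked for their small p over arrays that include these 6, so their count supports nothing.

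Among the lower genes, Tnfrsf25 (death receptor 3, a costimulator of T cells) had 4.45, 4.59, 4.07 and 4.45 in AEA001 femurs, against 5.70, 5.88, 5.27 and 5.94 in wild-type femurs. Its difference was -1.31 ± 0.17 (limma adjusted p = 0.0971), and -1.47 in the fit of 6 arrays (limma adjusted p = 0.0244). Purb, a protein that binds purine-rich single strands and represses muscle and growth genes, had 6.06, 6.14, 6.09 and 5.90 in AEA001 femurs, against 7.03, 7.32, 6.81 and 6.92 in wild-type femurs. It was -0.97 ± 0.12 (limma adjusted p = 0.0971), and -0.99 in the fit of 6 arrays (limma adjusted p = 0.0279). Bach1, a repressor that heme inactivates, had 8.49, 8.47, 8.33 and 8.52 in AEA001 femurs, against 9.32, 9.56, 9.07 and 9.18 in wild-type femurs. It was -0.83 ± 0.12 (limma adjusted p = 0.117), and -0.93 in the fit of 6 arrays (limma adjusted p = 0.0286). In each of the 3 genes every mutant lay below every wild type, replicate 3 included.

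The remaining lower genes of smallest p were Ddx6 and the regulators given further below, Padi2 at -0.59 ± 0.09, Spag1 at -0.67 ± 0.11, Arhgap32 at -0.60 ± 0.10, the MAX partner Mga at -0.82 ± 0.15, the centrosome gene Wdr62 at -0.90 ± 0.17 and the disulfide isomerase Pdia6 at -0.41 ± 0.08. Cdk10, a cyclin-dependent kinase, was -0.63 ± 0.10 by its brightest probe, and its other 2 probes had the opposite sign. Padi2 and Padi4 encode enzymes that turn arginine into citrulline, and they stood on opposite sides: Padi4, the neutrophil form that modifies histones, had 6.67, 6.38, 6.59 and 6.17 in AEA001 femurs, against 5.44, 5.66, 5.98 and 5.68 in wild-type femurs. Padi2 had 4.92, 5.17, 5.09 and 4.95 in AEA001 femurs, against 5.58, 5.56, 5.66 and 5.68 in wild-type femurs. No value overlapped between genotypes in either gene, and in limma's fit of 6 arrays Padi4 rose by 0.95 (adjusted p = 0.0279), with Padi2 at -0.54 (adjusted p = 0.05002).

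**Figure D2:**
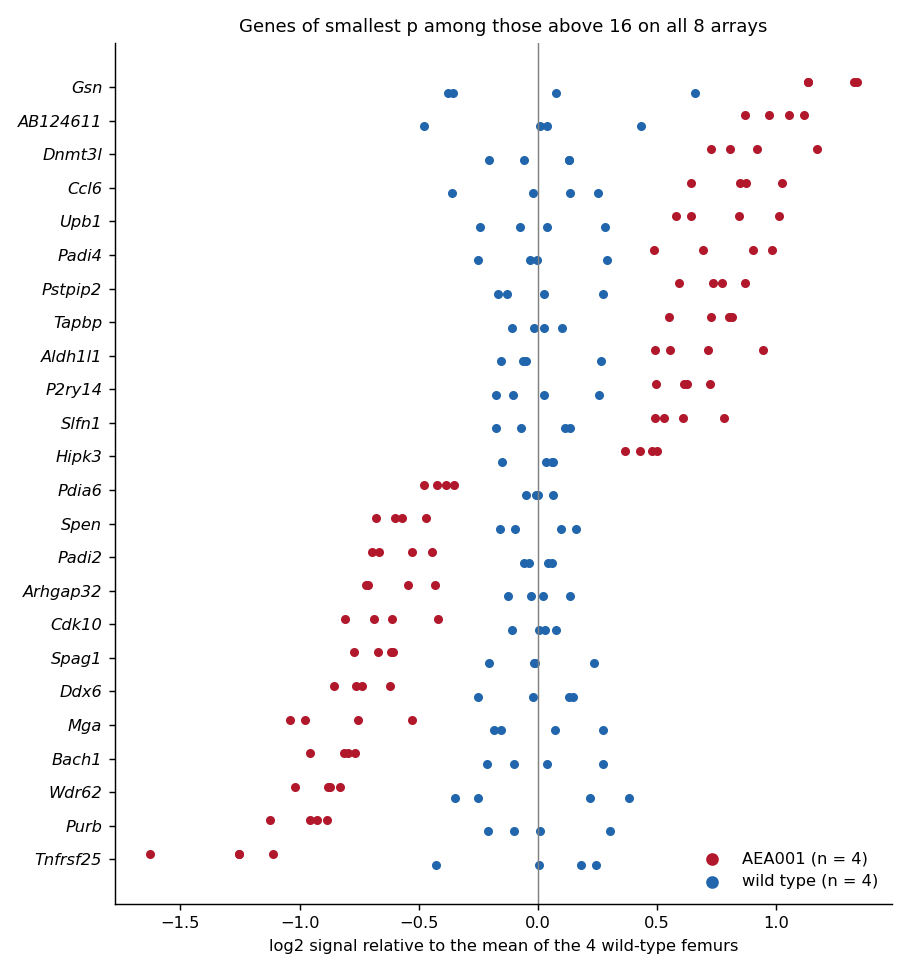
Log2 signal of each femur relative to the mean of the 4 wild types, for the 12 genes of smallest p in each direction among genes above 16 on all 8 arrays, AEA001 (red) above wild type (blue) within each gene. No mutant point overlaps a wild-type point of the same gene, which the choice by smallest p favours. Differences run between -1.31 (Tnfrsf25) and 1.23 (Gsn).

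Eosinophil granule genes had the largest differences of all genes, and the spread lay in the wild types. Eosinophils are granulocytes that store major basic protein (Prg2), its homologue Prg3, eosinophil peroxidase (Epx) and ribonucleases of the Ear family in their granules. Prg2 had 14.44, 14.34, 14.48 and 14.33 in AEA001 femurs, against 13.94, 9.19, 13.93 and 11.60 in wild-type femurs. Prg3 had 9.73, 9.51, 9.72 and 9.85 in AEA001 femurs, against 8.82, 4.28, 8.97 and 5.80 in wild-type femurs, and Epx had 9.15, 9.31, 9.43 and 9.44 in AEA001 femurs, against 8.77, 4.79, 8.81 and 6.64 in wild-type femurs. Wild types 1 and 3 stood within 1 log2 unit of the lowest mutant in all 3 genes, and wild types 2 and 4 far below. The differences were 2.23 ± 0.93 for Prg2, 2.73 ± 0.95 for Prg3 and 2.08 ± 0.80 for Epx, with limma adjusted p-values between 0.224 and 0.275.

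The ribonuclease gene Ear6 had 11.90, 11.83, 11.91 and 12.11 in AEA001 femurs, against 10.87, 4.00, 11.08 and 7.24 in wild-type femurs, with wild type replicate 2 at the floor. Its difference of 3.64 ± 1.38 was the largest of any gene (limma adjusted p = 0.246). Ear10 had 9.37, 8.96, 9.19 and 8.85 in AEA001 femurs, against 8.09, 6.75, 8.31 and 7.20 in wild-type femurs. It was 1.51 ± 0.32 (limma adjusted p = 0.168), and 1.83 in the fit of 6 arrays (limma adjusted p = 0.0417). Members of the Ear family are near-identical in sequence, so their probes may share signal. The eotaxin receptor gene Ccr3 had 6.43, 7.07, 7.02 and 7.18 in AEA001 femurs, against 5.78, 4.54, 7.03 and 5.56 in wild-type femurs, where wild type replicate 3 lay among the mutants. Ear6, Ccr3, Fcer1a and Cpa3 were named after their values were seen. Ccl11, the chemokine eotaxin that draws eosinophils, was 0.62 ± 0.21 (limma adjusted p = 0.218), and the genotypes overlapped.

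Mast cell and basophil genes leaned the same way by less. Fcer1a, the IgE-binding chain of the high-affinity IgE receptor, was 0.69 ± 0.20, the mast cell carboxypeptidase Cpa3 0.52 ± 0.19 and the basophil protease Prss34 0.48 ± 0.14. Alox15, a lipoxygenase of eosinophils in mice, was 0.90 ± 0.22, with 3 wild types at the floor. Its probe thus passed the brightness filter through the mutants and wild type replicate 1. The floor hides the spread of the other wild types, so this SE is too small. Of the 17 measured genes of the eosinophil, basophil and mast cell list, 16 were higher and 10 were higher at an unadjusted p under 0.05, where 6.53% of all genes were. The median was 0.52, against -0.03 over all genes, and the list mean was 8.47, 8.31, 8.29 and 8.29 in AEA001 femurs, against 7.77, 6.35, 8.02 and 7.19 in wild-type femurs. Wild type replicate 3 had the highest and replicate 2 the lowest wild-type mean. In limma's fit of 6 arrays 1 gene, Ear10, passed. The wild types with the lowest eosinophil signals, replicates 2 and 4, were also those with the widest probe gap. With that gap as a covariate the differences of Prg2, Prg3, Epx, Ear6 and Ccr3 turned to -0.25, -0.02, -0.14, -0.21 and -0.24, and Ear10 became 0.65. These values rest largely on wild type replicate 3.

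**Figure D3:**
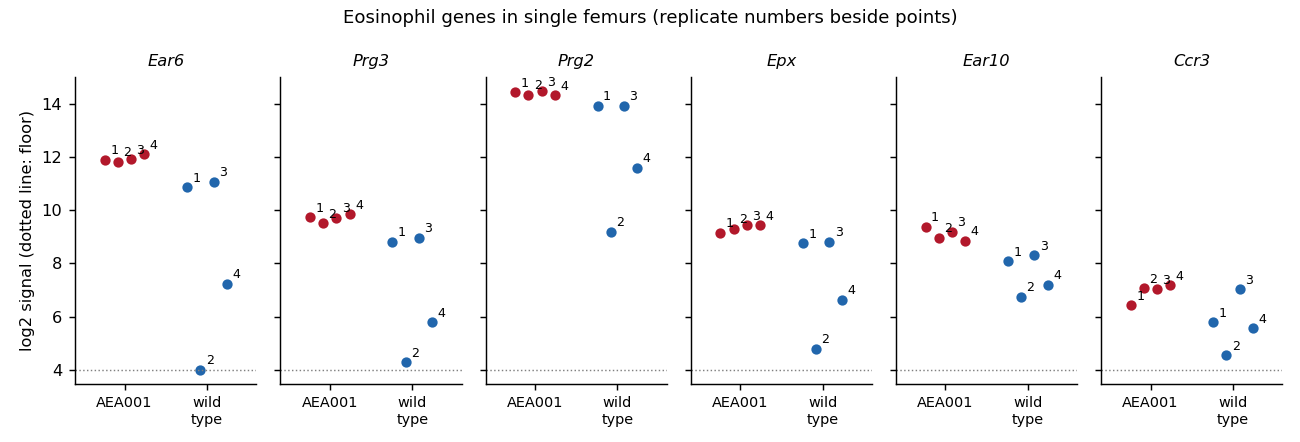
Log2 signal of 6 eosinophil genes in single femurs, AEA001 left and wild type right, with replicate numbers and the floor of 4 as a dotted line. The mutants lie close together in every gene, whereas wild types 2 and 4 lie below wild types 1 and 3 in each, for Ear6 at 4.00 and 7.24 against 10.87 and 11.08.

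Neutrophil genes were higher in the mutants as groups. The primary granule and precursor list, which holds the enzymes that young neutrophils pack first, had 17 of 18 measured genes higher, 10 of them at an unadjusted p under 0.05, with a median of 0.39. Its mean was 12.65, 12.60, 12.52 and 12.47 in AEA001 femurs, against 12.20, 11.88, 12.40 and 12.28 in wild-type femurs, without overlap. Ms4a3, a membrane protein of granulocyte and monocyte precursors, had 11.81, 12.02, 11.78 and 11.62 in AEA001 femurs, against 10.80, 10.60, 11.51 and 11.21 in wild-type femurs. It was 0.78 ± 0.19 (limma adjusted p = 0.171) and rose in the fit of 6 arrays (limma adjusted p = 0.0388). Serpinb1a, which inhibits neutrophil elastase, was 0.67 ± 0.17 and the lysozyme gene Lyz2 0.43 ± 0.14. The iron-binding Lcn2 was 0.43 ± 0.19 and Ngp 0.30 ± 0.14, both near the top of the scale.

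Of the mature neutrophil list, 25 of 25 measured genes were higher, 10 at an unadjusted p under 0.05, with a median of 0.35. Its list mean was 10.44, 10.28, 10.14 and 10.003 in AEA001 femurs, against 9.85, 9.46, 9.98 and 10.04 in wild-type femurs, so that wild type replicate 4 overlapped the lowest mutant. Retnlg, a resistin-like protein of neutrophils, was 0.51 ± 0.13, the NADPH oxidase subunits Cyba and Ncf4 0.39 ± 0.10 and 0.35 ± 0.10, and the receptor Trem3 0.50 ± 0.15. In all 4 the genotypes did not overlap. In limma's fit of 6 arrays 0 genes of the list passed at an adjusted p under 0.05.

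Receptors of myeloid cells were among the calls of lowest p in the 6-array fit. C5ar1, the receptor of complement fragment C5a, had 6.02, 6.24, 5.74 and 5.35 in AEA001 femurs, against 4.05, 4.00, 5.26 and 4.24 in wild-type femurs. It was 1.45 ± 0.30 (limma adjusted p = 0.161), and 1.90 in the fit of 6 arrays (limma adjusted p = 0.0168). The wild types of that fit were at or near the floor, which removes their spread, so this last p is too small. Clec5a, a lectin receptor that signals through DAP12, had 8.36, 8.45, 8.44 and 8.31 in AEA001 femurs, against 7.08, 6.38, 8.08 and 7.24 in wild-type femurs. It was 1.20 ± 0.30 (limma adjusted p = 0.171), with all 3 probes of 1 sign, and 1.52 in the fit of 6 arrays (limma adjusted p = 0.0312). Wild type replicate 3 was again the wild type nearest to the mutants in both.

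The signal regulatory proteins Sirpa, the receptor of the don't-eat-me ligand CD47, and its activating relative Sirpb1a differed alike. Sirpa had 7.43, 7.64, 7.56 and 7.97 in AEA001 femurs, against 6.37, 5.47, 7.35 and 6.05 in wild-type femurs, and Sirpb1a had 9.64, 9.21, 9.47 and 9.42 in AEA001 femurs, against 7.96, 7.30, 9.15 and 8.26 in wild-type femurs. The differences were 1.34 ± 0.34 and 1.27 ± 0.33, and 1.58 and 1.603 in the fit of 6 arrays (limma adjusted p = 0.0308 and 0.0336). Their extracellular parts are close in sequence, so probes may share signal. Cd300lb, another activating receptor, was 1.19 ± 0.34 (limma adjusted p = 0.182), and 1.72 in the fit of 6 arrays (limma adjusted p = 0.0168), and the inhibitory Lilrb4a was 0.67 ± 0.21 (limma adjusted p = 0.193), and 0.96 in the fit of 6 arrays (limma adjusted p = 0.0336). Of the list of Fc receptors, paired receptors and their signalling partners, 17 of 25 measured genes were higher, 9 at an unadjusted p under 0.05, with 1 lower. The lower one was Inpp5d, the phosphatase that ends this signalling, at -0.45 ± 0.12 (limma adjusted p = 0.182), and -0.59 in the fit of 6 arrays (limma adjusted p = 0.0376).

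Macrophage and complement genes showed the same direction. Of 26 measured macrophage and monocyte genes 25 were higher and 16 were higher at an unadjusted p under 0.05, with a median of 0.37, and the list mean was 9.34, 9.38, 9.37 and 9.24 in AEA001 femurs, against 8.92, 8.65, 9.22 and 9.05 in wild-type femurs. Mertk, a receptor for dying cells, was 0.37 ± 0.11, and Vsig4, the complement receptor of resident macrophages, 0.64 ± 0.19. Slc40a1, the iron exporter ferroportin of macrophages that recycle red cells, was 0.27 ± 0.10. In all 3 the genotypes did not overlap. Of 14 complement genes 13 were higher, 6 at an unadjusted p under 0.05, with a median of 0.37, and the inhibitor Cr1l passed in the fit of 6 arrays at 0.996 (limma adjusted p = 0.0286).

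Of the sensors of microbial products, 23 of 26 measured genes were higher, 11 at an unadjusted p under 0.05, with a median of 0.32 and a list mean of 7.99, 8.03, 7.998 and 7.93 in AEA001 femurs, against 7.66, 7.46, 7.83 and 7.77 in wild-type femurs. The flagellin sensor Naip2 was 0.43 ± 0.13 (limma adjusted p = 0.182), and 0.58 in the fit of 6 arrays (limma adjusted p = 0.0487). The inflammatory caspases Casp1 and Casp4 were 0.35 ± 0.10 and 0.56 ± 0.16 (1 of 3 Casp4 probes had the opposite sign), and Ly86, the partner of a receptor related to TLR4, was 0.41 ± 0.13. Wfdc17, a small secreted protein of macrophages, had 8.10, 8.15, 7.82 and 8.13 in AEA001 femurs, against 6.24, 6.06, 7.69 and 6.497 in wild-type femurs. It was 1.43 ± 0.32 (limma adjusted p = 0.168), and 1.76 in the fit of 6 arrays (limma adjusted p = 0.0196). Wild type replicate 3 stood just under the lowest mutant, and the other wild types well below it.

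The genes for antigen presentation on MHC class I were higher in 15 of 18 cases, 5 at an unadjusted p under 0.05, with a median of 0.18. These 5 were H2-M3 (named after its values were seen), Tapbp, Calr and a pair of genes of the immunoproteasome, which cuts peptides for display. Psmb8 was at 0.51 ± 0.12 (limma adjusted p = 0.168) and the activator subunit Psme2 at 0.52 ± 0.17 (limma adjusted p = 0.205). Psme2 rose in the fit of 6 arrays (0.67, limma adjusted p = 0.0431), as did the chaperone Calr (0.95, limma adjusted p = 0.0279), in which wild type replicate 3 exceeded every mutant. Calr had 9.56, 9.89, 9.73 and 9.78 in AEA001 femurs, against 8.86, 8.65, 9.97 and 8.82 in wild-type femurs, and with the probe gap as a covariate its 8-array difference turned to -0.19. Of 31 interferon response genes 21 were higher, 2 of them at an unadjusted p under 0.05, and the list mean overlapped between genotypes. Of 19 inflammatory cytokine and NF-kB feedback genes 9 were higher and 10 lower. Tnf (0.33 ± 0.10) and Nfkbia (0.26 ± 0.09) were 2 of the 3 that were higher at an unadjusted p under 0.05.

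Genes of bone-forming cells leaned lower. Of 22 measured osteoblast and matrix genes 17 were lower and 9 were lower at an unadjusted p under 0.05, where 9.17% of all genes were, with a median of -0.22. The list mean was 9.26, 9.20, 9.48 and 9.37 in AEA001 femurs, against 9.35, 9.74, 9.54 and 9.56 in wild-type femurs, and wild type replicate 1 stood among the mutants. Pth1r, the receptor of parathyroid hormone, had 7.81, 7.63, 7.87 and 7.93 in AEA001 femurs, against 8.41, 8.60, 7.93 and 8.58 in wild-type femurs. It was -0.57 ± 0.16 (limma adjusted p = 0.181), and -0.76 in the fit of 6 arrays (limma adjusted p = 0.0312), though 1 of its 3 probes had the opposite sign. AEA001 replicate 4 and wild type replicate 3 were nearly equal. Dlx3, a homeobox factor of bone and tooth, had 7.58, 7.46, 7.57 and 7.496 in AEA001 femurs, against 7.93, 8.15, 7.78 and 7.96 in wild-type femurs, without overlap, and was -0.43 ± 0.10 (limma adjusted p = 0.168). The tenascin Tnn was -0.43 ± 0.13.

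Both type I collagen chains had lower means in the mutants. Col1a2 had 8.77, 9.20, 9.18 and 8.82 in AEA001 femurs, against 9.29, 9.91, 9.37 and 9.31 in wild-type femurs, and Col1a1 had 12.79, 12.86, 13.33 and 13.06 in AEA001 femurs, against 13.23, 13.62, 13.36 and 13.48 in wild-type femurs. The difference was -0.48 ± 0.17 (limma adjusted p = 0.230) for Col1a2, without overlap, and -0.41 ± 0.14 (limma adjusted p = 0.217) for Col1a1, where 1 mutant reached the wild types. Col24a1, a fibrillar collagen of forming bone, was -0.43 ± 0.16, and P4ha1, an enzyme that hydroxylates collagen, -0.42 ± 0.14. Of 19 measured collagen genes 14 were lower, 5 at an unadjusted p under 0.05, with a median of -0.16. With the probe gap as a covariate that median was -0.001, a value that rests largely on wild type replicate 3. Bglap itself, the marker of mature osteoblasts, had overlapping intensities in the marker check above.

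Osteoclast, osteocyte and cartilage genes gave no common direction. The osteoclast list had 6 of 13 genes higher, the osteocyte list 3 of 8 and the cartilage list 8 of 14. Tnfrsf11a, the RANK receptor that turns precursors into osteoclasts, was -0.54 ± 0.17 (limma adjusted p = 0.204), and Src, a kinase that osteoclasts need to resorb bone, -0.45 ± 0.13 (limma adjusted p = 0.182). In the fit of 6 arrays Src fell by 0.57 (limma adjusted p = 0.0487). Mepe, a matrix protein of osteocytes, had 8.64, 8.502, 8.87 and 8.86 in AEA001 femurs, against 8.67, 7.05, 8.42 and 7.81 in wild-type femurs, and wild type replicate 1 lay among the mutants, with replicate 3 just below them. Of the muscle list 7 of 22 genes were higher, with list means of 13.19, 13.02, 12.78 and 13.04 in AEA001 femurs, against 12.98, 13.23, 12.92 and 13.18 in wild-type femurs, which overlapped, and the sign of its median difference depended on the setting.

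Red cell genes leaned lower. Of 38 measured erythroid genes 33 were lower and 13 were lower at an unadjusted p under 0.05, with a median of -0.18, and none was higher at that threshold. The list mean was 10.61, 10.80, 10.89 and 10.83 in AEA001 femurs, against 11.08, 11.01, 10.93 and 10.81 in wild-type femurs, and wild type replicate 4 lay among the mutants. Gata1, the master factor of the lineage, was -0.47 ± 0.14 (limma adjusted p = 0.184) by its brightest probe, and its other probe had the opposite sign. Its partner Zfpm1 (FOG1) had 13.27, 13.26, 13.48 and 13.37 in AEA001 femurs, against 13.81, 13.77, 13.56 and 13.59 in wild-type femurs and was -0.34 ± 0.10 (limma adjusted p = 0.184), and Gfi1b, a repressor of the red cell and platelet lineages, had 10.08, 10.16, 10.13 and 10.13 in AEA001 femurs, against 10.83, 10.71, 10.29 and 10.34 in wild-type femurs and was -0.42 ± 0.13 (limma adjusted p = 0.201). Neither overlapped between genotypes. Ube2o, which clears ribosomes from maturing red cells, was -0.44 ± 0.12, and Bpgm, which makes the effector that releases oxygen from haemoglobin, -0.56 ± 0.17.

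Genes of heme and iron had 18 of 25 members lower, 8 at an unadjusted p under 0.05, with a median of -0.16. Alas2, which begins heme synthesis in red cells, had 13.84, 13.87, 14.01 and 13.999 in AEA001 femurs, against 14.12, 14.32, 14.08 and 14.10 in wild-type femurs. The difference of -0.22 ± 0.09 (limma adjusted p = 0.270) was small, and the genotypes did not overlap. Abcb6, a porphyrin transporter, was -0.37 ± 0.10, and Glrx5, which serves iron-sulphur clusters, -0.28 ± 0.09. Of 22 megakaryocyte and platelet genes 15 were lower, 5 at an unadjusted p under 0.05. Itga2b, the platelet integrin CD41, had 10.11, 10.03, 10.45 and 10.43 in AEA001 femurs, against 11.23, 11.21, 10.66 and 10.69 in wild-type femurs. It was -0.69 ± 0.17 (limma adjusted p = 0.171), and -0.85 in the fit of 6 arrays (limma adjusted p = 0.0619).

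Lymphocyte genes were mixed. Blk, a kinase of B cells, had 8.40, 8.46, 8.61 and 8.499 in AEA001 femurs, against 9.21, 9.05, 8.92 and 8.85 in wild-type femurs and was -0.52 ± 0.10 (limma adjusted p = 0.161), with both probes of 1 sign. Pou2f2, the B cell factor Oct-2, had 6.01, 5.995, 6.14 and 6.16 in AEA001 femurs, against 7.07, 7.41, 6.28 and 6.91 in wild-type femurs. It was -0.84 ± 0.21 (limma adjusted p = 0.171), and -1.08 in the fit of 6 arrays (limma adjusted p = 0.0286). Of the 24 measured B cell genes 15 were lower, 3 of them at an unadjusted p under 0.05, where 9.17% of all genes were. Bcl11b, a factor of T cell identity, had 4.16, 4.56, 4.54 and 4.00 in AEA001 femurs, against 5.17, 5.47, 5.16 and 5.28 in wild-type femurs, close to the floor. It was -0.95 ± 0.15 (limma adjusted p = 0.136), and -0.89 in the fit of 6 arrays (limma adjusted p = 0.0355). Perforin (Prf1), which cytotoxic cells use to open their targets, was -0.76 ± 0.19 (limma adjusted p = 0.171), and -0.89 in the fit of 6 arrays (limma adjusted p = 0.0336), whereas the granule gene Nkg7 was 0.56 ± 0.17 (limma adjusted p = 0.187) and the T cell receptor chain Cd3d 0.44 ± 0.14 (limma adjusted p = 0.197). Over the T cell and cytotoxic list, 14 of 28 measured genes were higher.

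**Figure D4:**
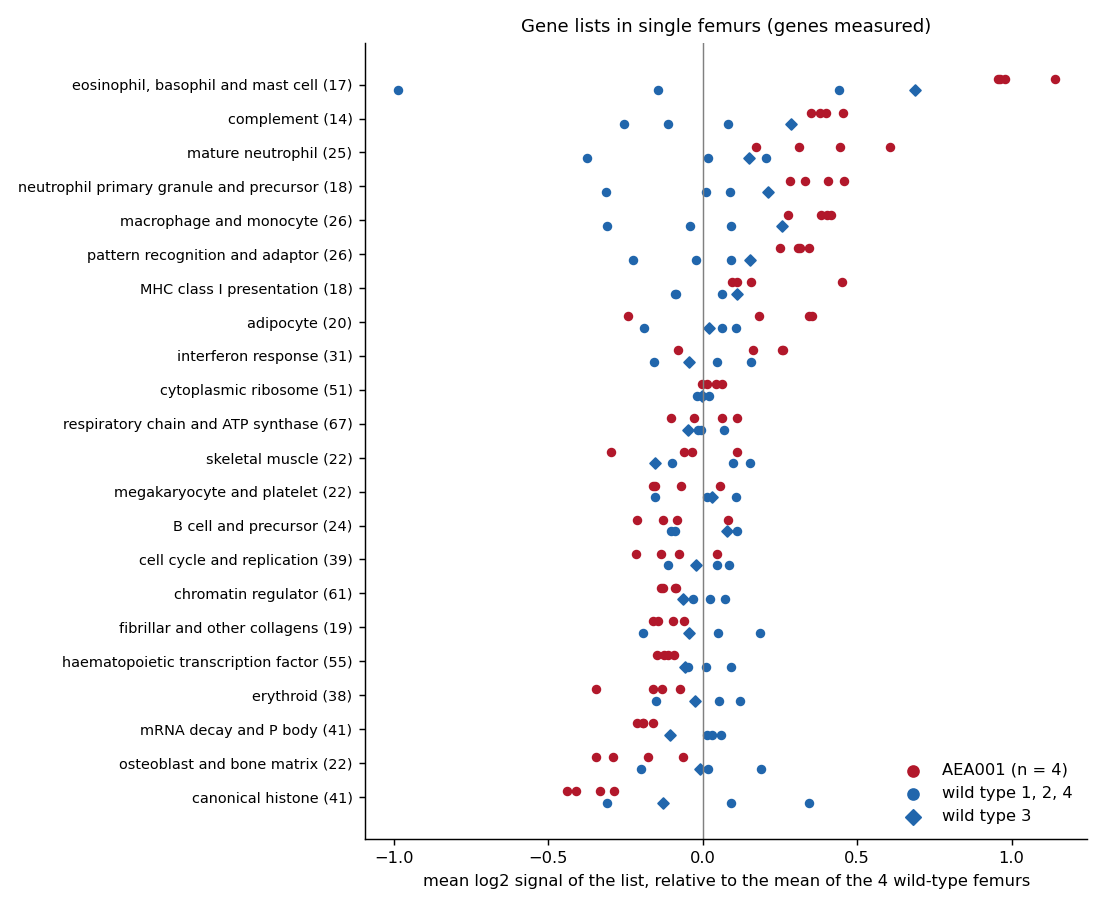
Mean log2 signal of 22 gene lists on each femur array, relative to the mean of the 4 wild types, with AEA001 (red) above wild type (blue) in each row and the number of measured genes in brackets. Eosinophil and other myeloid lists lie right of the wild-type mean and histone and red cell lists left of it. Wild type 3, drawn as a diamond, is the wild type nearest to the mutants in most of the myeloid lists.

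Canonical histone genes, which are transcribed chiefly in S phase and whose proteins package the new DNA, were lower as a group. Of 41 measured members 36 were lower, 18 of them at an unadjusted p under 0.05, and 0 of the other 5 were higher at that threshold. The median was -0.39. The list mean was 9.07, 9.18, 9.10 and 9.22 in AEA001 femurs, against 9.85, 9.60, 9.38 and 9.20 in wild-type femurs, and wild type replicate 4 lay among the mutants. H2bc3 had 5.96, 5.76, 5.92 and 6.40 in AEA001 femurs, against 7.51, 7.60, 6.66 and 6.60 in wild-type femurs. It was -1.08 ± 0.26 (limma adjusted p = 0.168), and -1.36 in the fit of 6 arrays (limma adjusted p = 0.0487). The linker histone H1f5 had 6.23, 6.77, 6.65 and 6.45 in AEA001 femurs, against 8.20, 7.75, 7.13 and 7.32 in wild-type femurs. It was -1.07 ± 0.23 (limma adjusted p = 0.168), and -1.20 in the fit of 6 arrays (limma adjusted p = 0.0529). H2ac4 was -0.66 ± 0.17 (limma adjusted p = 0.177), and H4f16, a histone H4 gene outside the list, -1.01 ± 0.24 (limma adjusted p = 0.168). In all 4 the genotypes did not overlap. For H2bc3, H1f5 and H4f16 this was fixed by the choice, since they were named from genes without overlap. Most of these histone transcripts end in a stem-loop with no poly(A) tail. Copies of a histone class are near-identical in coding sequence, so the probes may report a mixture.

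The brightest histone probes lay near the top of the scale, where the haemoglobin gene Hba-a1 read 15.04 on all 8 arrays, so a small difference there is not informative. Genes of the cell cycle and DNA replication showed less of a shift, with 27 of 39 measured genes lower, 5 at an unadjusted p under 0.05, and a median of -0.08. The helicase subunit Mcm2 had 10.78, 11.08, 11.15 and 11.09 in AEA001 femurs, against 11.39, 11.52, 11.33 and 11.40 in wild-type femurs, without overlap, and was -0.38 ± 0.10 (limma adjusted p = 0.182), while Nusap1, a spindle protein, was -0.26 ± 0.09 with 1 of 3 probes opposite in sign. The mean of the cell cycle list overlapped between genotypes.

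The promoters of H2bc3 and H1f5, the histone genes of the list with the largest differences, are shown because histone promoters share the CCAAT box, to which the factor NF-Y binds. The windows run from 250 bases before to 50 after the start of transcription (RefSeq, GRCm38.p6), and the capitals mark CCAAT on either strand, as CCAAT or ATTGG.
H2bc3, chr13:23746484-23746783, plus strand: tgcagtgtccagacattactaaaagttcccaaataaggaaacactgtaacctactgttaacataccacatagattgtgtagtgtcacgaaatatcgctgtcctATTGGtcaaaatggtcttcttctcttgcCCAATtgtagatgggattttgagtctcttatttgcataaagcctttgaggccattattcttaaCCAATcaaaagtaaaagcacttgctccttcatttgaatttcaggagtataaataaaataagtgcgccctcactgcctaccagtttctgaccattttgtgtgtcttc
H1f5, chr13:21780576-21780875, minus strand: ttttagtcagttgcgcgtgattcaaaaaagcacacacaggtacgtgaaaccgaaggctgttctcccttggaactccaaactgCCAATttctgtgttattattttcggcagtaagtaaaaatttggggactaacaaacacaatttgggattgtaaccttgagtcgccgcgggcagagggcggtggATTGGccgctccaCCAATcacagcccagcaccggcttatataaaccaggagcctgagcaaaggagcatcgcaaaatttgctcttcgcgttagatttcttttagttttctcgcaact
Each window held 3 matches, beginning 147, 119 and 56 bases before the start in H2bc3 and 168, 66 and 53 bases before it in H1f5. Of the 41 measured histone genes 37 had a window in the RefSeq table. Of those, 27 (73.0%) held at least 2 matches, against 12.2% of the windows of 27025 genes. Among the histone genes with a window, the share was 80% for the 15 that were lower at an unadjusted p under 0.05 and 68.2% for the other 22. A match is a stretch of letters and not a bound site.

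**Figure D5:**
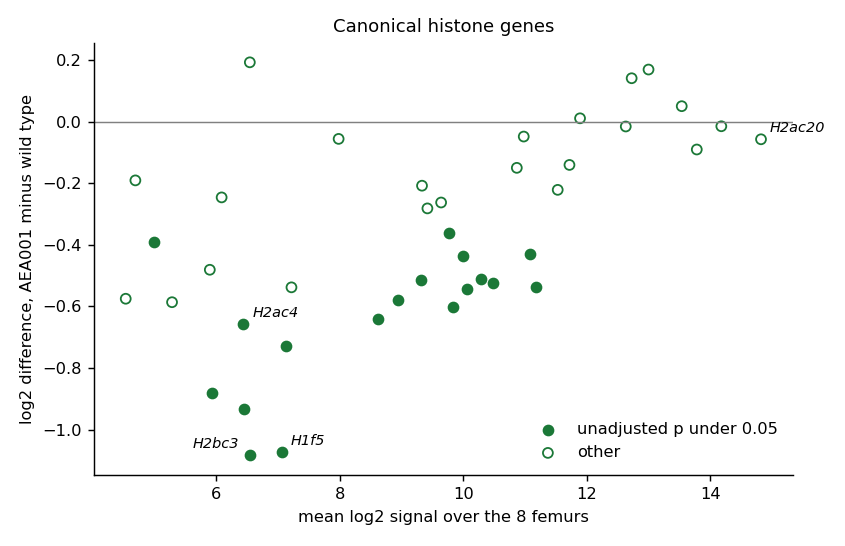
Log2 difference, AEA001 minus wild type, of 41 canonical histone genes against their mean log2 signal over the 8 femurs, with filled points for an unadjusted p under 0.05. All filled points lie below 0. Genes at the right end, such as H2ac20, lie near the top of the scale, where differences are compressed.

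Regulators of RNA leaned lower. Ddx6, the helicase that holds silenced mRNAs in P bodies, had 9.21, 8.98, 9.09 and 9.07 in AEA001 femurs, against 9.81, 9.98, 9.58 and 9.96 in wild-type femurs. It was -0.74 ± 0.11 (limma adjusted p = 0.136), with all 3 probes of 1 sign, and -0.82 in the fit of 6 arrays (limma adjusted p = 0.0286). The dimmer probes of Ddx6 were at -0.44 ± 0.19 and, near the floor, at -0.10 ± 0.21. Ago2, the Argonaute that cuts microRNA targets, had 6.30, 6.05, 6.31 and 6.93 in AEA001 femurs, against 7.52, 7.49, 6.83 and 7.15 in wild-type femurs. It was -0.85 ± 0.22 (limma adjusted p = 0.174), and -1.17 in the fit of 6 arrays (limma adjusted p = 0.0276), and the genotypes overlapped through AEA001 replicate 4 and wild type replicate 3. Tnrc6b, the scaffold that links Argonaute to deadenylation, was -0.62 ± 0.13 (limma adjusted p = 0.161) without overlap, and Cnot4, a ubiquitin ligase of the CCR4-NOT deadenylase, -0.71 ± 0.18 (limma adjusted p = 0.177), and -0.97 in the fit of 6 arrays (limma adjusted p = 0.0286). Of 41 measured genes of mRNA decay and P bodies 31 were lower, 12 at an unadjusted p under 0.05, with a median of -0.12 and a list mean of 8.72, 8.74, 8.74 and 8.77 in AEA001 femurs, against 8.96, 8.99, 8.82 and 8.94 in wild-type femurs, without overlap.

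Splicing genes leaned slightly lower too. Srrm2, a large scaffold of nuclear speckles, had 9.28, 9.33, 9.65 and 9.17 in AEA001 femurs, against 10.18, 10.33, 9.67 and 10.29 in wild-type femurs. It was -0.76 ± 0.17 (limma adjusted p = 0.168), with all 3 probes of 1 sign, and -0.85 in the fit of 6 arrays (limma adjusted p = 0.0329). The splicing kinase Clk4 was -0.39 ± 0.11 and Rbm5 -0.31 ± 0.09. Of 59 splicing genes 40 were lower and 19 higher, where 44.0% of all genes were higher. At an unadjusted p under 0.05, 11 were lower, where 9.17% of all genes were, and 3 were higher. The median was -0.09, against -0.03 over all genes. The list mean overlapped, with all 4 wild types inside the range of the mutants.

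Among chromatin regulators, 48 of 61 measured genes were lower, 15 at an unadjusted p under 0.05, with a median of -0.13, and 2 were higher at that threshold. Kmt2b, which methylates histone H3 at promoters, had 8.43, 8.58, 8.55 and 8.55 in AEA001 femurs, against 9.23, 9.10, 8.81 and 9.14 in wild-type femurs. It was -0.54 ± 0.11 (limma adjusted p = 0.157), and -0.63 in the fit of 6 arrays (limma adjusted p = 0.0336). Ep300, a histone acetyltransferase, had 9.78, 9.81, 9.73 and 9.67 in AEA001 femurs, against 10.43, 10.60, 9.92 and 10.31 in wild-type femurs. It was -0.57 ± 0.14 (limma adjusted p = 0.171), and -0.68 in the fit of 6 arrays (limma adjusted p = 0.0343). Ubn2, of the complex that deposits histone H3.3, was -1.06 ± 0.26 (limma adjusted p = 0.169), and -1.15 in the fit of 6 arrays (limma adjusted p = 0.0244). Spen, a large transcriptional repressor, was -0.58 ± 0.10 (limma adjusted p = 0.148), and -0.67 in the fit of 6 arrays (limma adjusted p = 0.0343). The probe gap entered as a covariate reduced these differences to -0.37, -0.21, -0.45 and -0.47, values that rest largely on wild type replicate 3.

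Of 55 measured transcription factors of blood cells 36 were lower, 15 at an unadjusted p under 0.05, with a median of -0.11 and a list mean of 9.17, 9.20, 9.19 and 9.15 in AEA001 femurs, against 9.39, 9.31, 9.24 and 9.25 in wild-type femurs. Nfatc3, a calcium-regulated factor, had 7.76, 7.64, 7.74 and 7.77 in AEA001 femurs, against 8.504, 8.90, 7.95 and 8.42 in wild-type femurs. It was -0.71 ± 0.18 (limma adjusted p = 0.171), and -0.89 in the fit of 6 arrays (limma adjusted p = 0.0343). The nuclear kinase Hipk2 had 6.97, 7.31, 6.71 and 6.90 in AEA001 femurs, against 8.22, 8.13, 7.43 and 8.06 in wild-type femurs. It was -0.99 ± 0.19 (limma adjusted p = 0.157), and -1.14 in the fit of 6 arrays (limma adjusted p = 0.0308). Foxn2, a forkhead gene, was -0.99 ± 0.22 (limma adjusted p = 0.168) and Zfp395 -1.003 ± 0.29 (limma adjusted p = 0.184). No genotypes overlapped in these 4. For Hipk2, Foxn2 and Zfp395 this was fixed by the choice, since they were named from genes without overlap. Fli1, an ETS factor of blood and endothelium, was the single gene of the list that was higher at that threshold, at 0.40 ± 0.11 (limma adjusted p = 0.182).

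Other genes of the 6-array fit did not form a list. Those that rose included Srgn, the granule proteoglycan serglycin, at 1.02, the endosomal adaptor Tom1 at 1.08, the lipid flippase Atp8b4 at 1.30, the aldo-keto reductase Akr1c12 at 1.07 and the receptor Kdelr2, which returns chaperones to the endoplasmic reticulum, at 0.69, with limma adjusted p-values between 0.0244 and 0.0286. Phgdh, the first enzyme of serine synthesis, rose by 0.84 and the mitochondrial protease Yme1l1 by 1.01, both with a limma adjusted p of 0.0286. In Akr1c12, Phgdh, Yme1l1 and Kdelr2, wild type replicate 3 lay within the mutant range, and over all 8 femurs the differences were 0.77, 0.64, 0.71 and 0.47. With the probe gap as a covariate that of Yme1l1 turned to -0.11. Yme1l1 had a second probe of nearly the same brightness at 0.05 ± 0.15 over all 8 femurs (limma adjusted p = 0.886), and that of Srgn was at 0.11 ± 0.25 (limma adjusted p = 0.856), against 0.76 for its brightest. Those that fell included the RNA-binding Prrc2a at -1.03, the AT-hook gene Ahdc1 at -0.80, Coa7 of cytochrome oxidase assembly at -0.83, and the zinc finger gene Zfp551 at -0.89, with limma adjusted p-values between 0.0244 and 0.0286. The cadherin gene Celsr2 (-1.17), the cilium gene Evc2 (-1.16) and Cby1 (-0.77) also passed, but the 3 mutants of that fit were at or near the floor, which removes their spread, so their p-values are too small and are not given.

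Cyp2e1, a cytochrome P450 that adipocytes and liver express, was among the genes of largest difference without overlap. It had 9.65, 9.51, 9.28 and 10.09 in AEA001 femurs, against 6.70, 8.19, 8.91 and 9.25 in wild-type femurs and was 1.37 ± 0.49 (limma adjusted p = 0.230), and wild type replicate 1 stood apart at the low end. Adipoq, the adipocyte hormone gene, was at 2175 ± 352 in AEA001 femurs and 2020 ± 325 in wild-type femurs (SD, n = 4 each) in intensity in the same femurs, and 15 of 20 measured adipocyte genes were higher, 1 of them at an unadjusted p under 0.05 with 2 lower. Dbp, an output gene of the circadian clock, was 0.53 ± 0.16 (limma adjusted p = 0.188), and 0.62 in the fit of 6 arrays (limma adjusted p = 0.0488), whereas 9 of 16 measured clock genes were higher.

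Genes of protein synthesis and energy supply lay on both sides. Of cytoplasmic ribosomal protein genes 30 of 51 were higher, of respiratory chain and ATP synthase genes 35 of 67 and of proteasome genes 17 of 29, with 3, 3 and 1 of them higher at an unadjusted p under 0.05. Heat shock proteins and chaperones had 4 of 35 genes higher, where 44.0% of all genes were, but the 3 that were lower at an unadjusted p under 0.05 are close to the share of 9.17% over all genes. They included Chordc1, a cochaperone of HSP90, at -0.46 ± 0.10 (limma adjusted p = 0.168) and Hsph1, a nucleotide exchange factor of HSP70, at -0.65 ± 0.18 (limma adjusted p = 0.182). Of 23 immediate early genes 19 were lower, 2 at an unadjusted p under 0.05, also close to that share, and the median of -0.14 turned to 0.06 with the probe gap as a covariate. With the probe gap as a covariate the list medians became 0.15 for primary granule genes, 0.22 for mature neutrophil genes, 0.10 for macrophage genes, 0.12 for eosinophil, basophil and mast cell genes, -0.12 for osteoblast genes, -0.23 for erythroid genes and -0.39 for canonical histones. Of these 7 lists, the histone and erythroid medians were not smaller in size than without the covariate.

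The femur difference was set against that of white adipose tissue from the same genotypes in 1 fit of 16 arrays with the animal as a random effect. Arrays of both tissues with the same genotype and replicate number were assumed to be 1 animal. Of 12882 probes bright enough in both tissues, 929 (7.21%) differed between the tissues in their genotype effect by limma at an adjusted p under 0.05. This count fell to 282 (2.19%) without the white adipose array of AEA001 replicate 2, on which the bone gene Bglap reached an intensity of 242, against at most -2.03 on the other white adipose arrays. Bach1 stood at -0.83 in the femurs and at 0.64 in white adipose tissue, a difference of -1.47 ± 0.20 (limma adjusted p = 0.0225, and 0.0276 without that array). Tapbp stood at 0.72 in the femurs and at -0.52 in white adipose tissue, a difference of 1.25 ± 0.23 (limma adjusted p = 0.0245, and 0.0401 without that array). Sirpa stood at 1.34 in the femurs and at -1.42 in white adipose tissue, a difference of 2.76 ± 0.55 (limma adjusted p = 0.0256, and 0.0443 without that array). These genes were named for their femur values, a choice that favours a difference between the tissues.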

How the data were processed

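Expression was measured on Illumina bead arrays, and the deposited intensity values are, per the submitters' processing notes, from GenomeStudio 2011.1. They were already normalised across both tissues by the authors, with values below 0 left in, and the method of normalisation is not given in the sources used here. In another deposited table, 16 signal columns matched no sample's labels and were not used. Of 25697 probes, 23978 had 1 gene in the platform annotation, 0 several and 1719 none, and 23962 matched a symbol of RefSeq GRCm38.p6.

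Intensities were floored at 16 and log2 values were fitted with lmFit and eBayes (limma 3.58.1, R 4.3.3), and summaries and figures used Python 3.11.15, pandas 2.3.3 and matplotlib 3.10.9. The fitting was tested on simulated data. Named genes were those with a called probe and, in each direction among bright genes, the 12 of smallest p. The 8 bright genes of largest difference in each direction were added, taken only from genes whose genotypes did not overlap. Also named were, in each direction, the 15 genes called with the lowest p without the arrays of the shared identifier. From each list came up to 3 genes of smallest p and 2 of highest signal. The comparison, members and gene lists were chosen with earlier results of these data known. P-values measure the spread between these animals. Precision is limited by how few arrays there are.

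Alternatives were other filters, floors, normalisations, priors, array weights, a fit of 16 arrays, a replicate block, left-out arrays and the mean of a gene's probes. The probe gap as a covariate and a left-out white adipose array were added after the data were seen. Same-numbered femurs of both genotypes had deviations that correlated between -0.07 and 0.06, so the numbers were not treated as pairs. Such values cannot exclude a weak pairing. In the fit of both tissues an animal was defined by genotype and replicate number. The estimated correlation within an animal so defined was -0.0884, with wild type replicate 3 and AEA001 replicate 4 taken as separate animals.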

Additional observations from a re-analysis of the deposited data

Results flagged for a closer look

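In 21 of 302 sets of 4 femurs 1 femur was apart from the other 3 by Dixon's ratio of its gap to the whole range, which chance gives in about 1 in 20 sets. In 5 of the sets at least 2 values stood at the floor, where the ratio is high by construction and neither it nor that rate says anything. The femur was wild type replicate 3 in 5 sets and AEA001 replicate 4 in 6, the femurs that share an identifier.

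In AEA001 replicate 1 this held for Abcb6 at 8.81 (others 9.03 to 9.05), Cby1 at 4.0003 (others 4.00), Gata1 at 7.75 (others 8.07 to 8.13) and the mean of the eosinophil, basophil and mast cell list at 8.47 (others 8.29 to 8.31). In AEA001 replicate 3 this held for Wfdc17 at 7.82 (others 8.10 to 8.15). In AEA001 replicate 4 this held for Celsr2 at 4.11 (others 4.00), Clk4 at 11.17 (others 11.39 to 11.42), Evc2 at 5.58 (others 4.00 to 4.02), Lta4h at 6.87 (others 7.90 to 8.03), Nusap1 at 11.85 (others 11.997) and Zfp395 at 4.12 (others 4.91 to 5.07). In wild type replicate 1 this held for Alox15 at 4.70 (others 4.00). In wild type replicate 2 this held for Col1a2 at 9.91 (others 9.29 to 9.37), Cyba at 12.29 (others 12.59 to 12.64) and Hipk3 at 4.55 (others 4.73 to 4.76). In wild type replicate 3 this held for Calr at 9.97 (others 8.65 to 8.86), Coa7 at 6.60 (others 7.17 to 7.23), Dbp at 10.42 (others 9.81 to 9.88), Kdelr2 at 10.09 (others 9.36 to 9.44) and Srgn at 10.08 (others 9.42 to 9.53). In wild type replicate 4 this held for the dimmer Lta4h probe at 4.21 (others 4.00).

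For 55 of 106 named genes the genotype difference in femur differed from that in white adipose tissue by limma at an adjusted p under 0.05, and for 29 also without the white adipose array of AEA001 replicate 2. Over all probes the share was 7.21%. The genes were named mostly for their femur differences, which favours a difference between tissues, so the count over them supports nothing. Both genotypes of each tissue entered 1 fit. Femur minus white adipose was positive for Ear10 (2.91), Sirpa (2.76), Wfdc17 (2.33), Lilrb4a (2.00), Ccl6 (1.75) and Yme1l1 (1.49). It was also positive for Lyz2 (1.49), Pstpip2 (1.46), AB124611 (1.44), Akr1c12 (1.32), Upb1 (1.26) and Cr1l (1.26). The same sign, positive, held for Srgn (1.25), Tapbp (1.25), Casp4 (1.20), Ly86 (1.16), Tom1 (1.12) and Gsn (1.11). Further positive values were those of Alox5ap (1.09), Serpinb1a (1.07), Phgdh (1.06), Fli1 (1.03), Vsig4 (1.01) and Aldh1l1 (0.97). Smaller positive values belonged to Casp1 (0.88), Alox5 (0.86), Naip2 (0.86) and P2ry14 (0.80). Femur minus white adipose was negative for Zfp395 (-1.80), Prf1 (-1.67), Purb (-1.57), Ubn2 (-1.56), Tnfrsf25 (-1.55) and Foxn2 (-1.49). It was also negative for Bach1 (-1.47), Ddx6 (-1.24), Arhgap32 (-1.19), Zfp551 (-1.17), Ago2 (-1.17) and Coa7 (-1.08). The same sign, negative, held for Spen (-1.04), Tnrc6b (-1.03), Srrm2 (-1.01), Itga2b (-0.9998), Pth1r (-0.97) and Cdk10 (-0.96). Further negative values were those of Cnot4 (-0.91), Hipk2 (-0.89), Alas2 (-0.86), Ahdc1 (-0.78), Zfpm1 (-0.75) and Clk4 (-0.74). Smaller negative values belonged to Kmt2b (-0.67), Ube2o (-0.61) and Rbm5 (-0.54).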

How the results depend on the processing

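The number of called probes depended on the settings and on single femurs. Over 8 femurs, where limma called 1 probe, it called 0 with only probes above 16 on all arrays, 2 with no filter, 4 with a floor of 32, 0 with log2 of intensity plus 32, 3 with a mean-variance trend and robust prior, 2 with array quality weights, 32 in the fit of 16 arrays, 5 at an adjusted p under 0.10, 0 with the probe gap as a covariate and 398 without both arrays of the shared identifier. Leaving out 1 femur gave 0 to 702 probes, with 702 for wild type replicate 3 and 0 for each other. The replicate block gave 0 calls and 2115 probes at an unadjusted p under 0.05, and 1 of 4 mutants correlated best with its own number. The 398 became 617 with probes above 16 on all 6 arrays and 1359 with a trend and robust prior, and 0 to 33 on leaving out 1 more femur. The difference between tissues, called for 929 probes, was called for 282 without the white adipose array of AEA001 replicate 2.

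With the probe gap as a covariate, signs turned for Calr (-0.19), Ccr3 (-0.24), Ear6 (-0.21), Epx (-0.14), Prg2 (-0.25), Prg3 (-0.0238), Yme1l1 (-0.11) and the median of muscle genes (0.13). That median also turned in the fit of 16 arrays (0.0216), without AEA001 replicate 3 (0.0315) and without wild type replicate 4 (0.00331). Cdk10 turned to 0.0068 with the mean of its probes. With a floor of 32, Cby1 had no value above the floor. The causes were not tested, and values with the probe gap as a covariate rest largely on wild type replicate 3. Of the 132 gene values and 19 list medians, no other changed sign in any setting that gave it a value. Not every setting gave all gene values: the fit of 16 arrays gave 106, and probes above 16 on all 8 arrays gave 124. Many further lists had medians near 0 that turned with the 6-array fit or the probe gap. Among these, the osteoclast and osteocyte medians turned in the 6-array fit (0.0451 and 0.0341), and the T cell and immediate early medians with the probe gap (-0.0294 and 0.0609). Dim probes limit what small differences can show.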
